A study of Mus musculus with 2 samples.

Results

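Chromatin accessibility at 10 nuclear receptor genes was compared between cardiac fibroblasts with and without depletion of Piezo2, a mechanosensitive ion channel. The genes were Vdr, Nr4a1, Nr4a2, Nr4a3, Rara, Rxra, Pparg, Ppard, Nr2f1 and Nr2f2, and their peaks were the rows of the deposited peak table whose annotation names one of these symbols. The rule found 39 peaks of the 63316 in the table, at 9 of the 10 genes. Nr2f1 had none. Accessibility was measured by ATAC-seq, in which the transposase Tn5 cuts open DNA and leaves sequencing adapters there.

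Both libraries came from primary murine cardiac fibroblasts that received TGF-β at 5 ng/ml for 24 h, a cytokine that drives fibroblasts towards myofibroblasts. One was transfected with a scrambled siRNA (SCR, titled NC) and the other with siRNA against Piezo2 (siPiezo2, titled SiPiezo2). There was 1 library per condition and none without TGF-β, so no difference has a replicate check and the response to TGF-β itself cannot be told apart. The methods place the mouse strains of the study on a C57BL/6 J background, and the age of the mice and the number of animals behind each culture were not given in the sources used here. The text deposited with the series speaks of a Tet3 knockout by Cre, whereas the sample labels name the siRNA against Piezo2, and the labels were followed. Accessibility does not measure mRNA, so the depletion of Piezo2 itself was not checked here.

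Nuclear receptors are transcription factors that bind DNA through a pair of zinc fingers and, in most cases, are switched by a small lipid-soluble ligand. VDR, the receptor for active vitamin D, the retinoic acid receptor RARA and the fatty acid sensors PPARG and PPARD each bind DNA as a heterodimer with the retinoid X receptor RXRA. The NR4A proteins have no known need for a ligand, and their genes are immediate early genes that respond within minutes to serum, calcium and cAMP. NR2F1 and NR2F2, also called COUP-TFI and COUP-TFII, are orphan receptors of mesenchyme and endothelium. In fibroblasts VDR, PPARG and NR4A1 are known as brakes on TGF-β signalling.

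The values are normalized read densities, that is reads per kb in a window of 2000 bp around each peak summit, as scaled between the libraries before deposit. Differences are given as log2((siPiezo2 + 1)/(SCR + 1)), so that negative values mean lower accessibility in siPiezo2. A gene's value uses its densities summed over its peaks. The reads behind the densities were recovered as whole numbers, and each log2 ratio carries a 95% exact binomial interval from them that covers counting error only. Of the 39 member windows, 7 overlap the window of the peak before them. Where windows of the same gene overlap, shared reads count more than once and the gene's interval is too narrow. Over all windows SCR had 4615335 reads and siPiezo2 2754046, and the median window held 58 and 36. Among the 21398 peaks called in both libraries, the interval left out 0 at 15.6%. An ATAC-seq density from a culture does not tell fewer cells with open chromatin from less open chromatin in every cell.

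The labelled cell type was checked against marker genes. All 8 fibroblast markers looked for had a peak, compared with 5 of 6 endothelial, 4 of 6 macrophage and 3 of 6 cardiomyocyte markers. Peaks were missing at the cardiomyocyte genes Myh6, Tnni3 and Nppa, at the macrophage genes Adgre1 and Cd68 and at the endothelial gene Tie1. Of all genes with a peak, 62.6% were lower in siPiezo2, and their median log2 ratio was -0.093. Summed over the fibroblast markers, the density was 1038 in SCR and 945.1 in siPiezo2, with 7 of 8 genes lower and a median log2 ratio of -0.27. The macrophage markers summed to 253.6 and 207.8 (4 of 4 lower, median -0.29), the endothelial markers to 477 and 509.1 (2 of 5 lower, median 0.0068), and the cardiomyocyte markers to 146.5 and 152.3 (1 of 3 lower, median 0.0036). Single genes stood out in these sums. Col1a1 and Col1a2, the genes of type I collagen, had intervals below 0, at -0.44 (-0.73 to -0.15) and -0.50 (-0.79 to -0.21). The endothelial cadherin gene Cdh5, with 47.7 in SCR and 78.0 in siPiezo2 at 1 peak, had 0.70 (0.32 to 1.08). Of all genes, 15.2% had an interval below 0 and 4.37% one above 0. The part of the marker genes in the values of the receptor genes was not tested.

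The receptor genes differed little between the conditions, and in the deposited scaling all but Vdr lay within their counting error of 0. Under 4 other scalings the interval of Vdr included 0. Under 2 of them that of Rara lay above 0, with the shared reads of overlapping windows counted more than once. The shares of all genes with such intervals under these scalings were not computed. The median log2 ratio over the 9 genes with a peak was 0.0009, while that of all 16934 genes with a peak was -0.093, with quartiles of -0.29 and 0.10. Of the 9 genes, 4 were lower in siPiezo2 (Vdr, Pparg, Nr2f2 and Rxra) and 5 were higher, against 62.6% of all genes lower. The interval of Vdr lay wholly below 0, as did that of 15.2% of all genes. All 3 peaks of Vdr had been called in SCR only, so they entered the table through the library in which they were higher, and the interval of Vdr holds -0.23, the median of all peaks of that kind. None of the 9 had an interval wholly above 0, as 4.37% of all genes did. From lowest to highest the order was Vdr, Pparg, Nr2f2, Rxra, Ppard, Nr4a2, Rara, Nr4a3 and Nr4a1. No neighbours in that order can be separated, because the intervals of all 9 genes share the range from -0.12 to -0.055, which also holds the median of all genes.

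**Figure D1:**
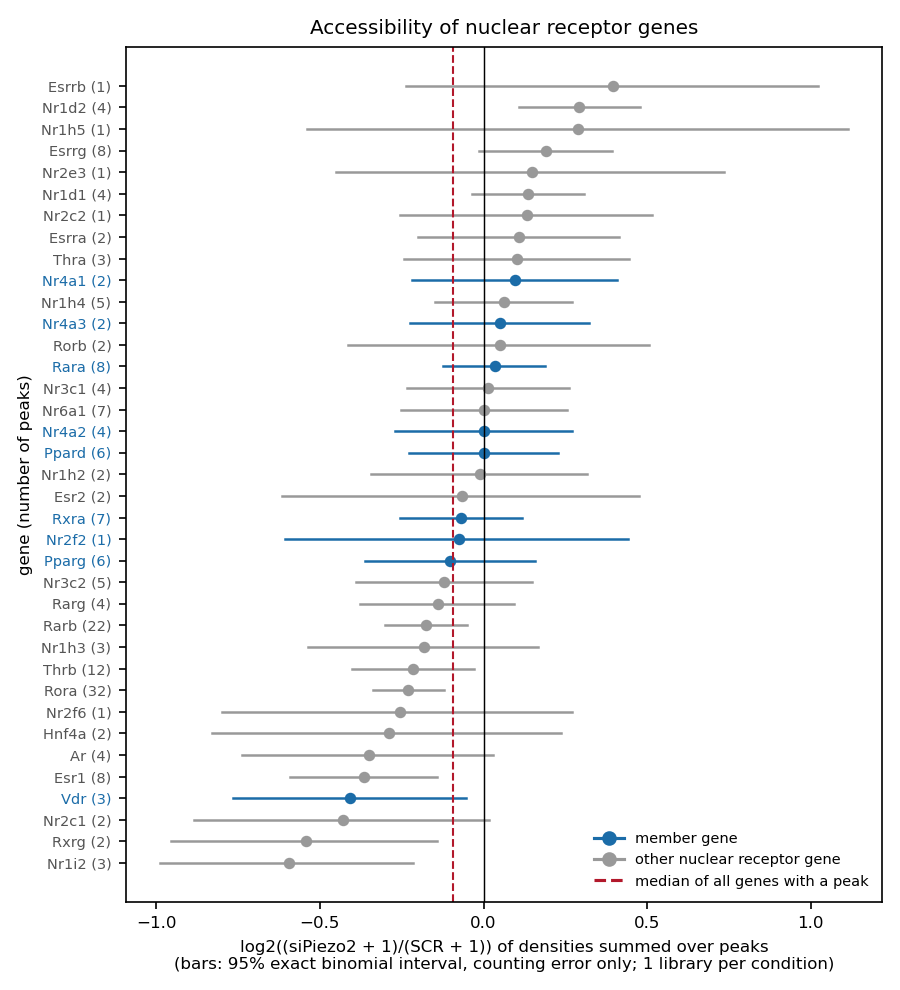
Each point is the log2 ratio of one nuclear receptor gene, with the number of its peaks in brackets, for the 9 member genes (blue) and the 28 other nuclear receptor genes with a peak (grey). Bars are 95% exact binomial intervals for counting error, and the dashed line is the median of all genes, -0.093. Vdr at -0.41 is the lowest member, and the bars of all 9 members cross the dashed line.

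By single peaks the picture was the same. Of the 39 peaks, 19 (48.7%) had a log2 ratio below 0, compared with 63.7% of all peaks, and the median was 0.0022 against -0.13. An intron of Pparg and an intron of Rara held the 2 peaks below 0.66 of SCR, or 5.13% of the 39, where 13.5% of all peaks were. No member peak exceeded 1.5 of SCR, as 3.21% of all peaks did. The interval lay below 0 at 1 member peak, in Pparg, beside 11.4% of all peaks, and above 0 at none, beside 3.63% of all peaks. Under each of 4 other scalings these counts were 0 below and 1 above, the latter a peak in an exon of Pparg. The shares of all peaks with such intervals under those scalings were not computed, so these counts have no background to be read against. At 38 of the 39 peaks the interval held the median of all peaks. The windows held 36 to 164 reads in SCR and 14 to 103 in siPiezo2, so that intervals reached 0.37 to 0.96 to either side on the log2 scale, with a median of 0.55. Smaller differences at a single peak were not detectable at this depth.

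**Figure D2:**
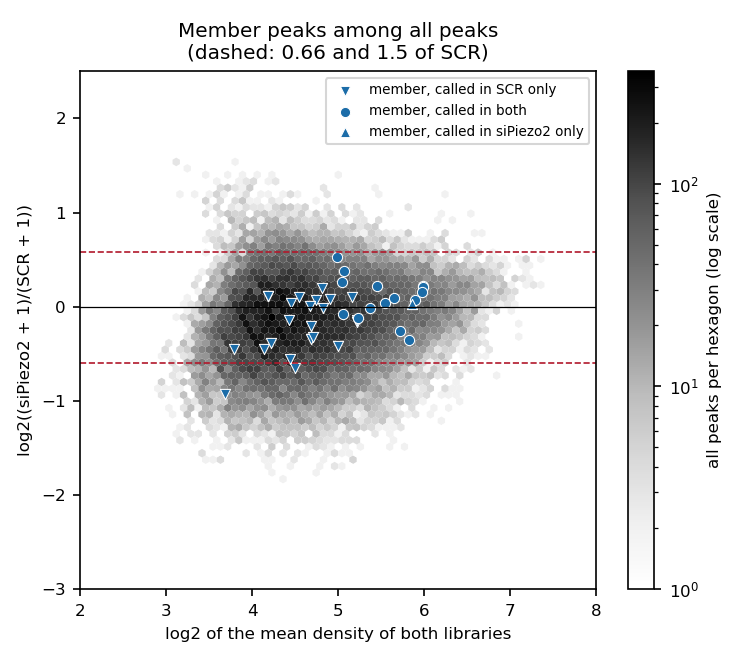
The log2 ratio of each peak is plotted against the log2 of its mean density, with all 63316 peaks as grey hexagons (darker, more peaks, log scale) and the 39 member peaks in blue. Triangles pointing down were called in SCR only, circles in both libraries and the triangle pointing up in siPiezo2 only. The dashed lines mark 0.66 and 1.5 of SCR, and 2 member peaks lie below the lower line.

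Whether a peak was called in a library depends on its height there, so the groups by call are partly set by the difference itself and are given as a description. The 23 member peaks called in SCR only had a median log2 ratio of -0.15, with 14 lower, against -0.23 for all such peaks. The 15 called in both had a median of 0.087, with 5 lower, against 0.0025. The single peak called in siPiezo2 only, in the promoter of Nr4a3, stood at 0.033, against 0.58 for its kind. By annotation, the 24 intron peaks had a median of 0.071 (11 lower) where all intron peaks had -0.17. The 10 promoter peaks within 1 kb of a start had -0.058 (5 lower) where all had -0.030. The 3 promoter peaks between 1 and 2 kb were all lower, at -0.16 to -0.019 with a median of -0.076, where all such peaks had -0.16. The 2 exon peaks were both higher, at 0.034 and 0.53, where all exon peaks had -0.090.

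Among the immediate early receptors, the promoters of Nr4a1 and Nr4a3 each held a peak called in both libraries, while the promoter peak of Nr4a2 shown here was called in SCR only. These 3 promoter windows are shown because each lay mostly under a peak and all carry the same short motif. Positions count back from the RefSeq start of the gene, and the sequences are those of RefSeq for GRCm38.p6, 250 bases upstream of the start, written 5′ to 3′ on the gene's strand. Capitals mark TGACG, the core of the cAMP response element, and GGAATG, the core bound by TEAD factors, on either strand (CGTCA and CATTCC when read on the other strand).
Nr4a1, chr15:101266596-101266845, plus strand: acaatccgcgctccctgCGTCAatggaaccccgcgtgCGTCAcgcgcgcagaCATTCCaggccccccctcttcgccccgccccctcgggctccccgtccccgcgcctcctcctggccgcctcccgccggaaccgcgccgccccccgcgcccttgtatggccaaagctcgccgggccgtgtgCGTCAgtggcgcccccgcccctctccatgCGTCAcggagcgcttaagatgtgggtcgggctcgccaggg
Nr4a2, chr2:57124004-57124253, minus strand: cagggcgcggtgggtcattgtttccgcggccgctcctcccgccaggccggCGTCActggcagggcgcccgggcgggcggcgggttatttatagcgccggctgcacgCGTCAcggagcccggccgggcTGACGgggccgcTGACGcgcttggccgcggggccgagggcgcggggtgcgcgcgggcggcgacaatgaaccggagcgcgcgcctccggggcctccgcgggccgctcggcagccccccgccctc
Nr4a3, chr4:48045055-48045304, plus strand: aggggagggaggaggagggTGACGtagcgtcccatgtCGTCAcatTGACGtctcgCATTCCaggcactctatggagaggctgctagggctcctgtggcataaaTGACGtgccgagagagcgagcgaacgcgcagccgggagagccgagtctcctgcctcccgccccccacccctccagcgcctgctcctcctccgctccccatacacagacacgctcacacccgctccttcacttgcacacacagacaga

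Each of the 3 windows held 4 matches to TGACG. They began at -233, -213, -69 and -40 in Nr4a1, at -200, -144, -123 and -111 in Nr4a2, and at -231, -213, -205 and -147 in Nr4a3. Of 32851 RefSeq promoter windows of the same length, 17.8% held at least 1 match, and of the 17 windows of the 10 receptor genes 4 did, the remaining one belonging to Rara. The share with 4 or more matches was not computed, nor a share among windows of like CpG content, although TGACG itself holds a CpG. GGAATG was matched once in Nr4a1 at -198 and once in Nr4a3 at -195, and was present in 12.6% of all windows and in none of the other receptor windows. The full element TGACGTCA (1.55% of all windows), the AP-1 motif TGANTCA (6.75%) and the CArG box of SRF (1.47%) were matched in none of the 17. TGACG is part of TGACGTCA, and a match is a run of letters, not a bound site. The windows were rich in G and C, at 74.4% in Nr4a1, 80.0% in Nr4a2 and 63.6% in Nr4a3, with 34, 44 and 18 CpG dinucleotides, where the median window had 52.4% and 6.

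Nr4a1 (ENSMUSG00000023034, chr15:101152150-101172676, plus strand as the table gives it) had 2 peaks, one at each of 2 alternative promoters. Its stronger peak, 619 bp wide, covered all 250 bases of the window shown and reached 215 bp past the start. It had a density of 58.5 in SCR (153 reads) and 68.4 in siPiezo2 (103 reads), giving a log2 ratio of 0.22 with an interval from -0.15 to 0.59. The other promoter, that of a longer transcript, had 27.5 in SCR and 23.7 in siPiezo2, or -0.21 (-0.82 to 0.39). The promoters thus pointed in opposite directions, each by less than its counting error. Summed, the gene had 86.1 in SCR and 92.1 in siPiezo2, for a log2 ratio of 0.097 (-0.22 to 0.41).

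Nr4a2 (ENSMUSG00000026826, chr2:56996842-57014015, minus strand) had 4 peaks with densities of 22.5 to 41.8 in SCR and 20.4 to 41.2 in siPiezo2. The peak under the promoter shown covered 223 of its 250 bases, and its density was 22.5 in SCR and 20.4 in siPiezo2, which is a log2 ratio of -0.14 (-0.81 to 0.51). The strongest, 657 bp wide and annotated as the promoter 1 to 2 kb before the start of another transcript, had 41.8 and 41.2, or -0.019 (-0.49 to 0.44). A pair of intron 1 peaks stood at 0.076 and 0.066. The 4 log2 ratios spanned only -0.14 to 0.076, and the gene's summed density came to 119.7 in SCR and 119.9 in siPiezo2, giving a log2 ratio of 0.0020 (-0.27 to 0.27).

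Nr4a3 (ENSMUSG00000028341, chr4:48045153-48086445, plus strand) had the highest density per peak of the 9 genes, 57.7 in SCR and 59.8 in siPiezo2. The peak over its start had 58.1 in SCR (151 reads) and 60.9 in siPiezo2 (92 reads), for a log2 ratio of 0.066 (-0.32 to 0.45). It covered 199 bases of the window shown, whose RefSeq start lies 152 bp downstream of the transcript start used in the table. The peak just upstream had been called in siPiezo2 only, yet its densities were 57.4 in SCR and 58.8 in siPiezo2, or 0.033 (-0.36 to 0.42). The 2 windows share most of their reads, so they are close to 1 measurement, and the upstream one also overlaps the window of a peak at Gm57084. Summed over both, the gene had 115.5 and 119.6, which is a log2 ratio of 0.050 (-0.22 to 0.32).

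Of the 9 member genes, Vdr had the lowest log2 ratio over all assigned peaks, although its interval overlaps those of the other members. It was not the lowest with peaks within 1 kb of a start (Vdr -0.34, Pparg -0.46), with the strongest peak alone (Vdr -0.32, Rxra -0.35) or with distal peaks added (Vdr -0.067, Rxra -0.22). Vdr (ENSMUSG00000022479, chr15:97752306-97806191, minus strand) had 3 peaks, all in introns, all called in SCR only and all lower in siPiezo2. The peak in intron 2, at chr15:97785293-97785622, had a density of 25.9 in SCR (61 reads) and 17.3 in siPiezo2 (28 reads), giving a log2 ratio of -0.55 (-1.25 to 0.12). In intron 1, the peak at chr15:97805122-97805323 had 28.8 in SCR (69 reads) and 22.5 in siPiezo2 (36 reads), or -0.34 (-0.97 to 0.26). The peak nearest the start, at chr15:97805655-97805882, had 29.2 in SCR (70 reads) and 23.1 in siPiezo2 (37 reads), or -0.32 (-0.94 to 0.27). Thus the interval of each single peak included 0.

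Summed over its peaks, Vdr had a density of 83.9 in SCR (200 reads) and 63.0 in siPiezo2 (101 reads), for a log2 ratio of -0.41 (-0.77 to -0.055), and 15.4% of all genes were lower still. The 2 intron 1 windows overlap, and with separate windows only the value was -0.45 (-0.90 to -0.0051). The call rested on the scaling between the libraries. With 4 other scalings the log2 ratio was -0.24 to -0.32 and each interval included 0.

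The peak nearest the start of Vdr began 309 bp downstream of it and ended at 536 bp, so the promoter window of Vdr was not under a peak. The window is shown for comparison with those of the NR4A genes, and none of the motifs searched was matched in it.
Vdr, chr15:97908297-97908546, minus strand, RefSeq, GRCm38.p6: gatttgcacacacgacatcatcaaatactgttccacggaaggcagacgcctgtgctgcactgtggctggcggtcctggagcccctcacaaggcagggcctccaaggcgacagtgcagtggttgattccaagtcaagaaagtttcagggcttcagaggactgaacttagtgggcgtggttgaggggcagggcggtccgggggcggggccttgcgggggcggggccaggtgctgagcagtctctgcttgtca

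Its GC content was 61.2% with 11 CpG dinucleotides. A stronger peak 3.9 kb upstream of Vdr, annotated as distal intergenic and therefore given no symbol in the table, went the other way. Its density was 65.0 in SCR (172 reads) and 79.1 in siPiezo2 (118 reads), which is a log2 ratio of 0.28 (-0.071 to 0.63), and its interval lay above 0 under 3 of 4 other scalings, at 0.37 to 0.42. With it the sum for Vdr came to -0.067 (-0.31 to 0.18).

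Rara, the retinoic acid receptor, had nearly equal sums in both libraries. It had the most peaks and reads of the 9 genes only when overlapping windows were counted in full. Rara (ENSMUSG00000037992, chr11:98818644-98865768, plus strand) had 8 peaks, 6 of them called in both libraries, with summed densities of 347.8 in SCR (882 reads) and 356 in siPiezo2 (548 reads). The log2 ratio was 0.034 (-0.12 to 0.19), the narrowest interval of the 9 genes when all windows were counted. Some windows of Rara overlap and share reads. With separate windows only, Rara had 6 peaks (609 and 375 reads) and a log2 ratio of 0.0006 (-0.189 to 0.189). Rxra, with no overlapping windows, had 7 peaks, more reads (640 and 383) and a slightly narrower interval (-0.255 to 0.116). Over all 8 peaks the log2 ratio became 0.17 (0.016 to 0.33) with median-of-ratios scaling and 0.18 (0.020 to 0.33) with a trimmed mean. Both intervals lay above 0, but they count shared reads more than once and are too narrow. These scalings were not computed with separate windows only.

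Within Rara the peaks went in both directions. The peak over the start, at -241 to 52 bp, had 46.0 in SCR and 47.4 in siPiezo2, or 0.042 (-0.40 to 0.48). The strongest pair lay side by side in intron 1, and the first of them had 58.5 in SCR and 67.7 in siPiezo2, or 0.21 (-0.17 to 0.58). Start and intron 1 were thus level with SCR or slightly above it, within counting error. A peak in intron 2, at chr11:98842221-98842551, lay past the 0.66 limit, with 27.9 in SCR (66 reads) and 17.4 in siPiezo2 (28 reads), or 63.7% of SCR and a log2 ratio of -0.65 (-1.34 to 0.0072), which was -0.52 with median-of-ratios scaling and -0.47 from reads at the same total, both within the limit. The peak in intron 3 was the highest of the gene, with 28.9 and 37.9, or 0.38 (-0.14 to 0.90). A further promoter, 761 bp before the start of a shorter transcript, had 57.5 in SCR and 47.9 in siPiezo2, or -0.26 (-0.68 to 0.15). The interval included 0 at all 8 peaks.

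Rxra (ENSMUSG00000015846, chr2:27566452-27652969, plus strand), the common partner of VDR, RARA and the PPARs, had 7 peaks. Their summed density came to 256.9 in SCR (640 reads) and 244.9 in siPiezo2 (383 reads), giving a log2 ratio of -0.069 (-0.26 to 0.12). The promoter peak had 25.5 in both libraries, with a log2 ratio of 0.0022 (-0.61 to 0.60). The strongest peak, in intron 2, had 63.4 in SCR (164 reads) and 49.5 in siPiezo2 (75 reads), or -0.35 (-0.76 to 0.052). Its neighbour in intron 1 had 36.7 and 27.3, or -0.42 (-0.98 to 0.12). The other 5 peaks lay between 0.0022 and 0.20, so that only these neighbours, 57.5 and 63.2 kb into the gene, were lower.

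Around Rxra lay 10 further peaks that the annotation called distal intergenic and whose nearest start site was that of Rxra. They fall outside the rule that chose the members and were looked at after the data had been seen. Of the 10, 6 had been called in SCR only, the 3 lowest among them, and so entered the table through the library in which they were higher. All 10 were lower in siPiezo2, where 66.3% of the 19430 distal intergenic peaks were lower with a median of -0.18. Their summed density came to 377.2 in SCR (933 reads) and 298.8 in siPiezo2 (467 reads), for a log2 ratio of -0.34 (-0.50 to -0.17). The lowest lay 23.4 and 10.4 kb upstream of the start, at -0.78 (-1.59 to -0.030) and -0.79 (-1.51 to -0.12), and 122.2 kb downstream, at -0.67 (-1.36 to -0.014). Under 4 other scalings the sum was -0.19 to -0.25, and over the 4 peaks called in both libraries it was -0.24 (-0.46 to -0.020). Together with the peaks in the gene the value was -0.22 (-0.34 to -0.10).

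**Figure D3:**
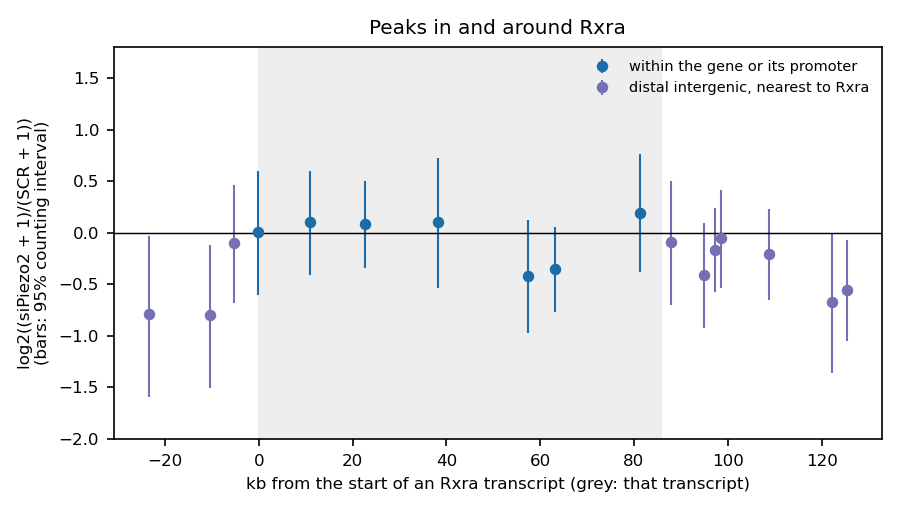
Log2 ratios of the 7 peaks assigned to Rxra (blue) and of the 10 distal intergenic peaks nearest to it (purple) are plotted against the distance from the start of an Rxra transcript in kb, with the transcript in grey and bars for the 95% interval of counting error. All 10 distal peaks lie below 0, while 5 of the 7 peaks in the gene lie above it.

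The other members had few distal peaks of this kind. Nr4a1 had 2, 13.3 and 7.8 kb upstream, both higher in siPiezo2 and also looked at after the data had been seen. Their summed density came to 103.2 in SCR (270 reads) and 133.8 in siPiezo2 (201 reads), which is a log2 ratio of 0.37 (0.10 to 0.64), and under 4 other scalings the value was 0.32 to 0.51 with intervals above 0. With them the sum for Nr4a1 came to 0.25 (0.051 to 0.46), an interval above 0 that its own peaks did not give, where 4.37% of all genes had one from their assigned peaks. The nearer one alone had 73.0 and 96.4, or 0.40 (0.074 to 0.71). Nr4a2 had 1 such peak, of 14.1 in SCR (32 reads) and 19.9 in siPiezo2 (33 reads), or 0.47 (-0.27 to 1.22). Nr4a3, Rara, Pparg, Ppard, Nr2f1 and Nr2f2 had none.

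Pparg, the receptor of fat cells and the target of the glitazones, held both the lowest and the highest of the 39 member peaks. Pparg (ENSMUSG00000000440, chr6:115337912-115467360, plus strand) had 6 peaks with summed densities of 135.8 in SCR (321 reads) and 126.6 in siPiezo2 (203 reads), giving a log2 ratio of -0.10 (-0.36 to 0.16). The lowest, in intron 5 at chr6:115430619-115430838, had 17.1 in SCR (38 reads) and 8.55 in siPiezo2 (14 reads), or 52.7% of SCR and a log2 ratio of -0.92 (-1.92 to -0.0070). The highest, in exon 6 at chr6:115439872-115440326, had 25.9 in SCR (63 reads) and 37.7 in siPiezo2 (60 reads), or 144% of SCR and a log2 ratio of 0.53 (-0.0060 to 1.06). Under 4 other scalings the low peak stood at -0.64 to -0.84 with intervals that included 0, and the high peak at 0.61 to 0.67 with intervals above 0. The low peak was one of the weakest of the table, with 4.06% of all peaks weaker, and the high peak was the only one of the gene called in both libraries.

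Of the 4 remaining peaks of Pparg, 3 were lower in siPiezo2 and 1 was higher, and each interval included 0. The strongest, in intron 7, had 39.0 in SCR and 35.2 in siPiezo2, or -0.15 (-0.65 to 0.35). The peak nearest a start of Pparg, 754 bp upstream of a short transcript, had 20.4 and 14.7, or -0.45 (-1.22 to 0.29). A peak in intron 6 had 16.1 in SCR (36 reads) and 11.5 in siPiezo2 (19 reads), also -0.45 (-1.33 to 0.39), and the other peak of that intron stood at 0.11 (-0.61 to 0.83). All peaks of Pparg but that promoter peak, 5 in number, lie closer to the start of ENSMUSG00000108141, a gene within the Pparg locus, than to any start of Pparg. From the peaks within 1 kb of any start site the gene's log2 ratio was -0.46, and from the single peak called in both libraries it was 0.53, so the sign rested on which peaks were counted.

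Ppard (ENSMUSG00000002250, chr17:28451674-28520448, plus strand), the PPAR of most tissues, had 6 peaks with nearly the same sum in both libraries. It was 168.1 in SCR (408 reads) and 168.2 in siPiezo2 (267 reads), for a log2 ratio of 0.0009 (-0.23 to 0.23). The peak at its start, from -194 to 144 bp, had 39.0 in SCR and 35.8 in siPiezo2, or -0.12 (-0.62 to 0.37). The strongest, in intron 2, had 40.4 and 47.1, or 0.22 (-0.24 to 0.66). The lowest of the 6, also in intron 2, had 21.2 and 16.0, or -0.39 (-1.13 to 0.33).

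Nr2f2 (ENSMUSG00000030551, chr7:70001692-70010341, minus strand), which encodes COUP-TFII, had a single peak 650 bp wide, 1150 bp upstream of its start and called in both libraries. Its density was 34.2 in SCR (84 reads) and 32.3 in siPiezo2 (51 reads), which is a log2 ratio of -0.076 (-0.61 to 0.44). Its paralogue Nr2f1 had neither a peak of its own nor a distal peak nearest to it.

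**Figure D4:**
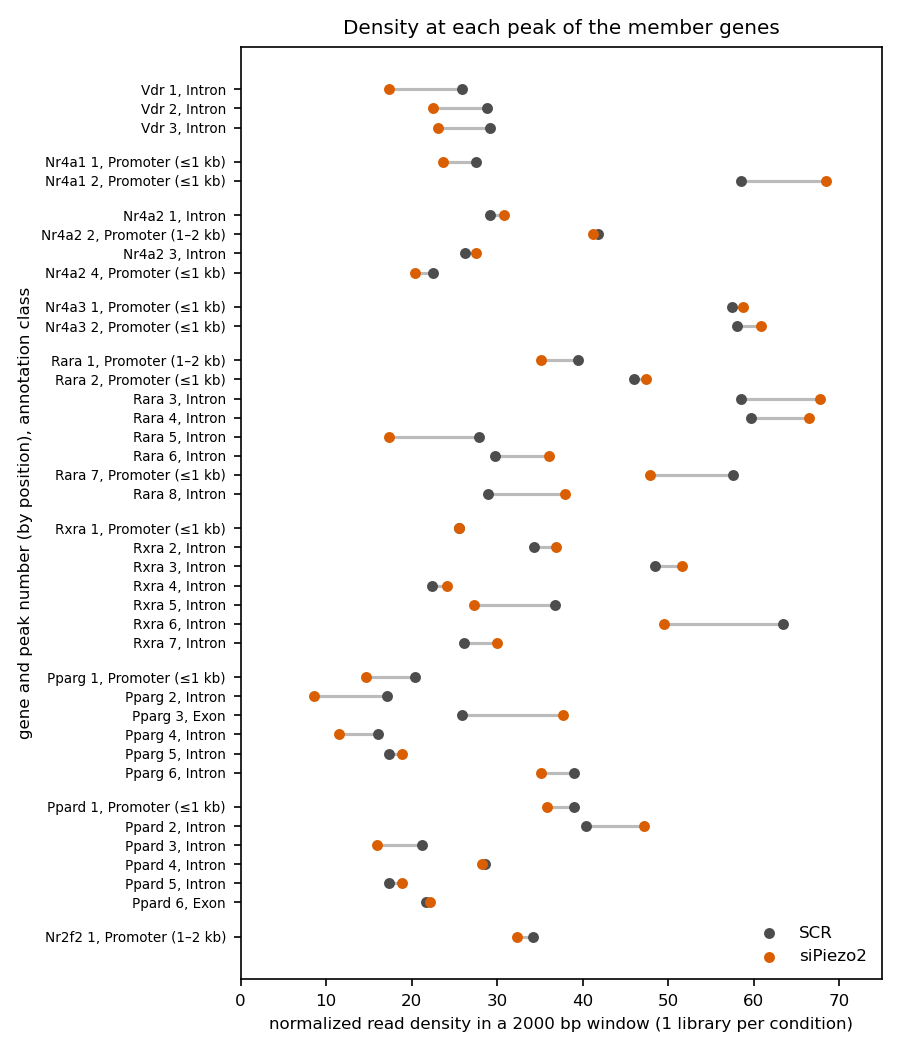
Normalized read density of each of the 39 member peaks in SCR (grey) and siPiezo2 (orange), 1 library per condition, in order of position within each gene. All 3 peaks of Vdr lie lower in siPiezo2, and the peaks of Rara, Rxra, Pparg and Ppard go in both directions.

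The rest of the nuclear receptor family was looked at in the same way. Of 39 other receptor genes 28 had a peak, and 15 of these were lower in siPiezo2 with a median log2 ratio of -0.039, between that of the members and that of all genes. Intervals lay below 0 at 6 of the 28 and above 0 at 1, beside 15.2% and 4.37% of all genes, and 62.6% of all genes were lower. The 6 were Nr1i2, the xenobiotic receptor PXR, at -0.60 (78.2 in SCR and 51.4 in siPiezo2), Rxrg at -0.54 (69.3 and 47.3), the oestrogen receptor gene Esr1 at -0.37 (202.1 and 156.7), Rora at -0.23 (804.5 and 686.1), the thyroid hormone receptor gene Thrb at -0.21 (275 and 236.9), and Rarb at -0.18 (581 and 514.2). The 1 above 0 was Nr1d2, a clock receptor also called REV-ERBβ, at 0.29 (224.2 and 274.9), and the highest value was that of Esrrb at 0.40 (-0.24 to 1.02) from 1 peak. Peaks were missing at 11 of the 39, among them Ppara and Rxrb.

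Genes that work with these receptors were mostly lower, as were 62.6% of all genes. Of 12 coregulators, the proteins that receptors recruit to open or close chromatin, all had a peak, 10 were lower and the median log2 ratio was -0.20. The coactivator gene Ncoa1 was the lowest at -0.56 (-1.03 to -0.10), with 54.5 in SCR and 36.7 in siPiezo2. Ppargc1a, the PPARG coactivator of mitochondrial biogenesis, was the highest at 0.19 (-0.24 to 0.61).

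Of 12 genes of retinoid metabolism 8 had a peak, 7 of them lower, with a median of -0.15. The interval lay below 0 at Dhrs3, which encodes a retinaldehyde reductase, with 204.3 in SCR and 171.9 in siPiezo2, or -0.25 (-0.47 to -0.032). The lowest was Aldh1a3, a retinoic acid synthesis gene, at -0.38 (-0.95 to 0.17), and the highest was Rdh10 at 0.0092 (-0.35 to 0.36).

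The target genes of the PPARs and of VDR went in both directions. Of 12 PPAR targets 8 had a peak, 5 of them lower, with a median of -0.090. Ucp3, a mitochondrial uncoupling protein gene, was the lowest, with 19.6 in SCR and 9.20 in siPiezo2, or -1.01 (-1.96 to -0.14). Pdk4, which encodes a kinase that restrains glucose oxidation, was the highest, with 55.9 and 83.4, or 0.57 (0.22 to 0.92). Of 10 vitamin D genes 5 had a peak, 3 of them lower, with a median of -0.078. Tnfsf11, the gene of RANKL, had 20.5 and 8.62, or -1.16 (-2.14 to -0.27). Cyp24a1, which encodes the enzyme that breaks down active vitamin D, had 16.7 in SCR (39 reads) and 26.9 in siPiezo2 (44 reads), or 0.66 (0.0013 to 1.32). Each of these 4 targets was measured at 1 peak. At Cyp27b1, the gene of the enzyme that makes active vitamin D, there was no peak.

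The core site of nuclear receptors, AGGTCA, was matched in 3 of the 17 receptor promoter windows, 2 of Pparg and 1 of Rxra, and in 14.0% of all windows. The longer NR4A site AAAGGTCA, which contains it, was matched in that Rxra window alone, compared with 1.34% of all windows. None of these 3 windows had a member peak that could be placed over it.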

How the data were processed

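Chromatin accessibility was measured by ATAC-seq in 1 SCR and 1 siPiezo2 library. According to the methods the authors trimmed adapters, aligned reads with bwa, removed PCR duplicates with Picard and called peaks with MACS2. The submitters' processing notes name BWA 0.7.12 and mm10. The gene coordinates in the deposited table are those of GRCm39, so positions are printed as the table gives them and no peak sequence was read from the GRCm38 reference. The labels name one ATAC-seq kit, and the methods name that kit among the reagents and another in their ATAC-seq protocol. The deposited signal columns hold a normalized read density per library (coverage of a 2000 bp window), which the authors scaled by fitting the log2 ratio against mean density with a tool not given in the sources used here. The authors' ratio, mean and p-value columns were not used.

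From the 2 density columns the intercept (-0.248) and slope (0.174) of that fit were found by least squares on whole reads. Reads came out whole within 0.05 for 100% of peaks. The pseudocount was 1 and the fold limits were 0.66 and 1.5. Intervals are exact binomial (Clopper-Pearson) at 95%. With 1 library per condition no test was made. Every member was described, with the peaks past a fold limit, the strongest peak and the peak nearest the start, and of each other list the genes with the lowest and highest value or with an interval that leaves out 0. Some genes that this rule names are not reported here. The distal peaks fall outside that rule and were chosen after seeing the data. Members, lists and tests were chosen with earlier results of these data known. Promoter windows came from RefSeq (GRCm38.p6), where all 10 genes matched, and were placed under peaks by distance from the start of the same transcript. The recovery of reads was tested on simulated data. Scripts ran in Python 3.11.15 with pandas 2.3.3, numpy 2.4.6, matplotlib 3.10.9 for plots and scipy 1.17.1 for intervals.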

Additional observations from a re-analysis of the deposited data

How the results depend on the processing

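Of 97 recomputed gene values 92 stayed within the gene's interval, as did all 117 recomputed peak values. The intervals are wide beside the shifts made by rescaling, so these counts cannot show that a value is stable. A value could also change sign within its interval. With median-of-ratios scaling Rxra went from -0.069 to 0.070, Nr2f2 from -0.076 to 0.059 and Pparg from -0.10 to 0.037. Scaling moved the median of all genes from -0.093 to 0.043 (median-of-ratios), -0.0076 (same total density), 0.046 (trimmed mean) and 0.030 (recovered reads at the same total), and the number of member genes lower, 4 in the report, became 1, 2, 1 and 1, while the share of all genes lower went from 62.6% to 44.0%, 51.3%, 43.4% and 46.0%. Under each of these 4 scalings 1 member peak lay below 0.66 of SCR in place of 2, and 1 above 1.5 in place of 0, with 7.30% to 9.97% of all peaks below 0.66 and 4.90% to 7.80% above 1.5. No peak lay below 0.66 among those within 1 kb of a start, at or above the median density or called in both libraries, nor below the 2-fold limit (0 in each, where 6.43%, 11.5%, 5.36% and 2.76% of all peaks did). The number of member genes lower also changed with the peaks counted. It was 5 of 8 within 1 kb of a start, beside 54.7% of all genes, and 5 of 9 with separate windows, beside 62.8%. At or above the median density it was 3 of 9, beside 58.0%, and with peaks called in both 3 of 8, beside 48.8%. With only the strongest peak, Rara stood at 0.21 and Rxra at -0.35. Pparg stood at -0.46 with peaks within 1 kb of a start, 0.17 with peaks at or above the median density and 0.53 with peaks called in both. With peaks called in both, 6 of 19 other receptor genes were lower in place of 15 of 28, with 48.8% of all genes lower in place of 62.6%. The comparison turned round with peaks within 1 kb of a start, where 14 of 21 were lower beside 54.7% of all genes. With separate windows 17 of 28 were lower, beside 62.8%, and at or above the median density 10 of 23, beside 58.0%. No paired analysis was possible because there was 1 library per condition.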
